A study of Ginkgo biloba with 9 samples.

Results

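In leaves of Ginkgo biloba, 147 of 41309 gene identifiers met a rule for a peak at a moderate planting density. Their transcript level there exceeded those at both a sparser and a denser planting by a set margin, given below. The trees were 2 years old, of the cultivar Fozhi, and grew in a nursery for leaf harvest. CK, the control, was planted at 20 plants per square metre, MD at 40 and HD at 80, and each density gave 3 RNA sequencing libraries. The labels do not say whether the libraries of one density came from separate trees, so a p-value here covers the spread among such libraries and that spread may be technical. In bulk leaf RNA, fewer cells of a type and less RNA per cell cannot be told apart.

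The genes were chosen from measured values, deposited as FPKM (fragments per kilobase of gene, relative to the size of the library). A gene needed 3 or more libraries with an FPKM of 1 or more, a mean under 1000 FPKM, and a value above 0 in at least 1 library of each density. Its mean log2(FPKM + 1) in MD had to exceed those in CK and in HD by at least 1, with all 3 MD libraries above all 6 others. The differences of MD from CK and from HD are therefore given as a description, with no test. HD against CK was not part of the rule and was tested. The first condition held for 19854 genes, which are the genes tested below and of which the 147 make 0.74%. Of all tested genes, 1892 (9.53%) had all 3 MD libraries above all 6 others by any margin.

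Crowded plants compete for light, and leaves sense neighbours through phytochromes, photoreceptors that read the ratio of red to far-red light. Shading is known in many seed plants to change growth, photosynthesis and the making of flavonoids. Ginkgo leaves are harvested for flavonol glycosides and for terpene lactones, the ginkgolides and bilobalide. The deposited table gives identifiers without gene names, so pathway lists, leaf markers and roles were not matched to the 147 genes.

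Most of the 147 genes were of low abundance. The median level was 1.65 FPKM in CK plants, 6.71 in MD plants and 1.51 in HD plants, against 10.5, 10.6 and 10.6 FPKM for the median of all tested genes. By MD mean, 88 genes lay under 10 FPKM, 49 between 10 and 100, and 10 at 100 FPKM or more. The mean was under 1 FPKM in CK for 49 genes and in HD for 56, and in 28 genes the MD libraries were the only ones to reach 1 FPKM. Those 28 passed the filter on low values through MD alone, and 42 genes, these included, needed MD libraries to pass it.

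Reads in genes, worked out from the steps between FPKM values, numbered 14703244 to 22445296 per library. Summed over its 3 libraries, the median gene of the set had 108 reads in CK, 443 in MD and 79 in HD. The lowest sums were 5, 49 and 1 reads. At least 1 CK library was at 0 in 3 genes, at least 1 HD library in 7, and no MD library was at 0 in any of them.

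MD exceeded CK by a median of 1.36 on the log2(FPKM + 1) scale, with a range of 1.001 to 6.90. MD exceeded HD by a median of 1.55, with a range of 1.002 to 4.75. The smaller of these differences had a median of 1.27 and was under 1.5 in 105 genes. In 17 genes MD exceeded both other densities by at least 2 on this scale. It exceeded CK by at least 2 in 28 genes and HD in 44. The scale understates the change of low genes. As a ratio of mean FPKM, MD was at least 4-fold above both in 54 genes, with a median ratio of 3.84 to CK and 4.85 to HD. From the lowest MD library to the highest of the other 6, the gap ranged from 0.16 to 2.79, with a median of 0.97. No single MD library led throughout, since MD1 was the highest MD library in 53 of them, MD2 in 37 and MD3 in 57.

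**Figure D1:**
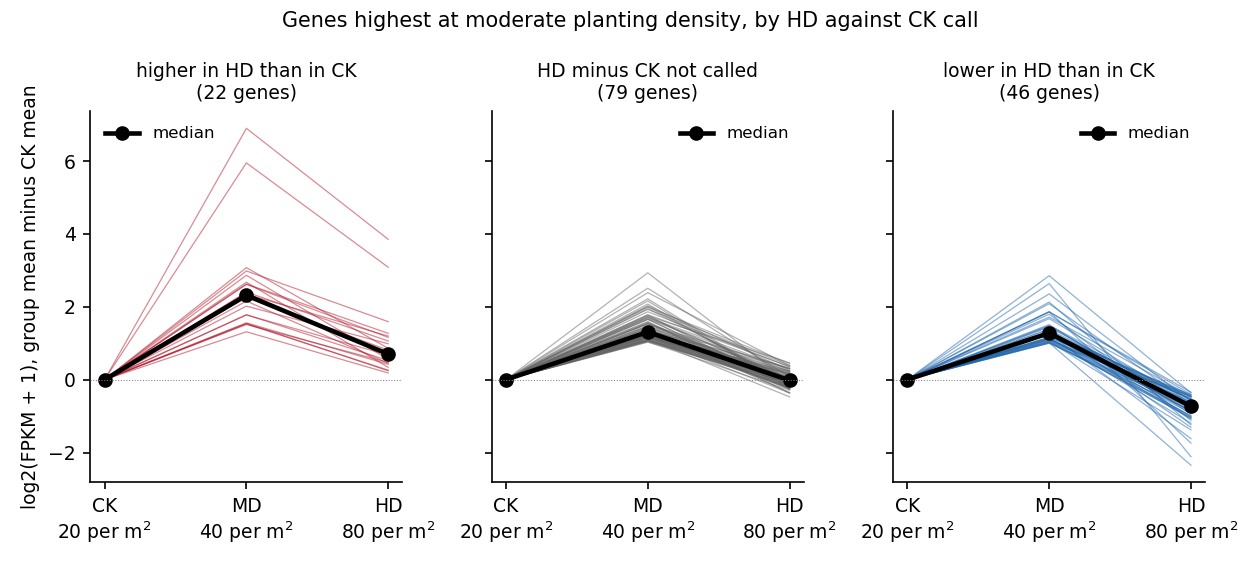
Each thin line is a gene of the set. The vertical axis is its mean log2(FPKM + 1) at each density minus its CK mean, and the horizontal axis gives the densities of 20, 40 and 80 plants per square metre. Panels hold the 22 genes called higher in HD than in CK, the 79 not called and the 46 called lower, with the median as a black line, and every line has its top at MD because the rule demanded it.

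The edges of the rule cut through a continuous range of genes. The gene nearest inside exceeded CK by 1.001 in MD and HD by 1.85, with 660, 762 and 803 FPKM in the CK libraries, 1481, 1443 and 1518 in the MD libraries and 402, 364 and 471 in the HD libraries. It was also the most abundant of the 147. The gene nearest outside exceeded CK by 1.40 in MD but HD by 0.9999, with 17.3, 14.4 and 16.7 FPKM in the CK libraries, 44.0, 42.0 and 46.6 in the MD libraries and 21.0, 19.9 and 24.1 in the HD libraries. Other conditions removed few genes. Only 1 gene failed on overlapping libraries alone, 7 on a density with no FPKM above 0, 2 on a mean of 1000 FPKM or more, and 3 on the filter on low values.

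Over the 147 genes, summed FPKM were 1773, 1936 and 1985 in the CK libraries, 5448, 5489 and 5805 in the MD libraries and 1390, 1392 and 1559 in the HD libraries. Of all FPKM they made 0.173% ± 0.011 at the CK density, 0.515% ± 0.018 at MD and 0.145% ± 0.0095 at HD (SD, n = 3 each). All 3 HD sums lay below all 3 CK sums. Summed FPKM of all genes was also lower in HD, at 996238 to 1001236 against 1082734 to 1097979 in CK. As a share of all FPKM, the 147 genes made 0.139% to 0.156% in the HD libraries and 0.161% to 0.183% in the CK libraries. Without its 2 most abundant genes, the sums over the set averaged 943 ± 13.6 FPKM for CK, 3149 ± 92.2 for MD and 744 ± 27.3 for HD (SD, n = 3 each). Each HD library was again below each CK library. The second most abundant gene went the other way, with 181, 216 and 243 FPKM in the CK libraries, 889, 929 and 1034 in the MD libraries and 271, 285 and 316 in the HD libraries. It rose in HD relative to CK by 0.45 on the log2(FPKM + 1) scale (SE 0.0965, adjusted p = 0.00248, limma).

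A pair of genes nearly absent from CK had the largest excess of MD over CK on the log2(FPKM + 1) scale. Gb_36910 had 0.0976, 0.50 and 0.997 FPKM in the CK libraries, 177, 168 and 184 in the MD libraries and 16.5, 22.2 and 23.3 in the HD libraries. The 3 densities did not overlap, and MD exceeded CK by 6.90 and HD by 3.04 on the log2(FPKM + 1) scale. By reads, the MD libraries held 4969 and the CK libraries 18, a ratio of 325 after scaling for library size. Gb_35701 had the same order of levels, with 0.385, 0.822 and 0.357 FPKM in the CK libraries, 95.6, 96.2 and 84.8 in the MD libraries and 13.7, 9.54 and 12.6 in the HD libraries. Its 3 densities were also apart, with MD above CK by 5.95 and above HD by 2.86. By reads, MD exceeded CK 173-fold and HD 7.78-fold, close to the 8.54-fold of Gb_36910 over HD.

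A different pair was nearly absent from HD. Gb_29977 had 3.79, 4.32 and 4.34 FPKM in the CK libraries, 31.4, 32.8 and 28.9 in the MD libraries and 0.212, 0.278 and 0.0818 in the HD libraries. Its reads summed to 382 over the CK libraries, 2427 over MD and 16 over HD. MD exceeded HD 158-fold by reads and by 4.75 on the log2(FPKM + 1) scale, the largest such difference among the 147 genes. Gb_14012 had 2.96, 3.16 and 3.68 FPKM in the CK libraries, 16.5, 14.0 and 13.3 in the MD libraries and 0.218, 0.257 and 0.352 in the HD libraries. MD exceeded HD by 3.61 on the log2 scale and 53.2-fold by reads. In both genes CK stood between the denser plantings, well below MD and well above HD.

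**Figure D2:**
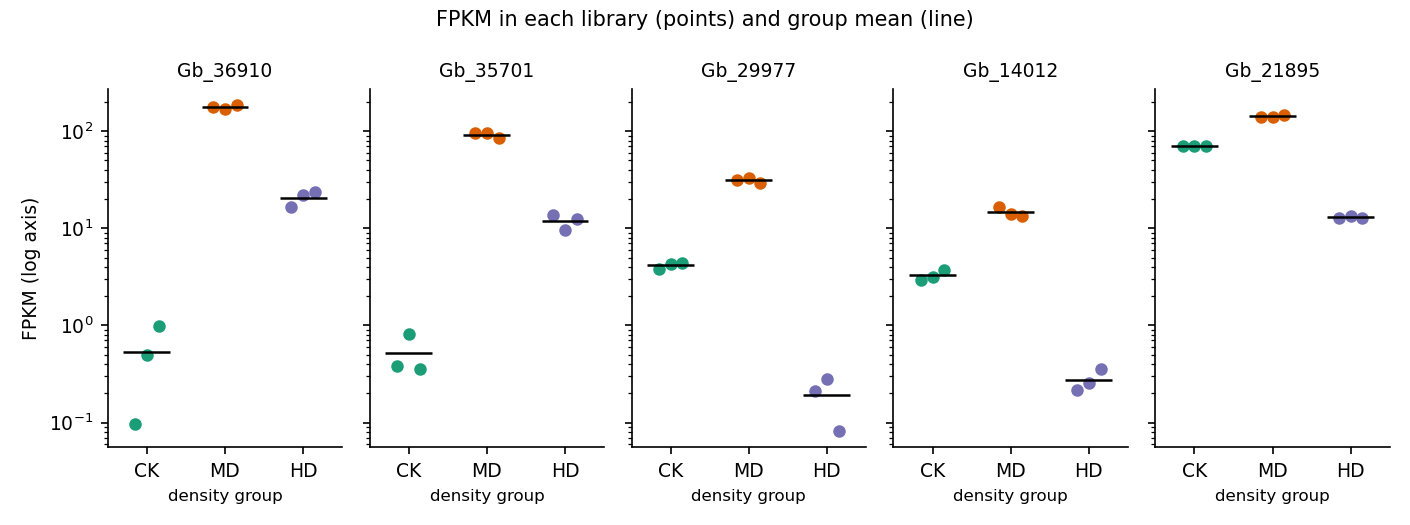
FPKM on a log axis for the 5 named genes, with 1 point per library, a line at each group mean, and CK, MD and HD from left to right. Gb_36910 and Gb_35701 lie lowest in CK, under 1 FPKM, and Gb_29977, Gb_14012 and Gb_21895 lie lowest in HD.

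Because the choice of genes used all 9 libraries, it was repeated with the libraries of 1 replicate number left out and read in those 3. With 2 or more of the remaining 6 libraries required to reach an FPKM of 1, 147, 155 and 153 genes were chosen without numbers 1, 2 and 3. The 2 MD libraries among the 6 could meet that filter alone. The left-out MD library was above both the left-out CK and HD libraries in 145, 148 and 151 of them. It was above both by at least 1 on the log2 scale in 107, 107 and 108, or 72.8%, 69% and 70.6%. Among all tested genes, the same single libraries gave 0.922%, 0.876% and 0.871%, or 183, 174 and 173 genes, which include those just counted. Of the chosen genes, 129, 135 and 131 were among the 147. The labels do not say whether the libraries of one density came from separate trees. A left-out library may thus be a technical repeat of those used, and its values are then no independent check of the choice. No conclusion about density is drawn from these shares. The median excess in the left-out libraries was 1.39, 1.34 and 1.34 over CK, where the libraries used for the choice gave 1.35, 1.39 and 1.39. Over HD the left-out libraries gave 1.501, 1.55 and 1.52, and those used gave 1.57, 1.56 and 1.56.

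**Figure D3:**
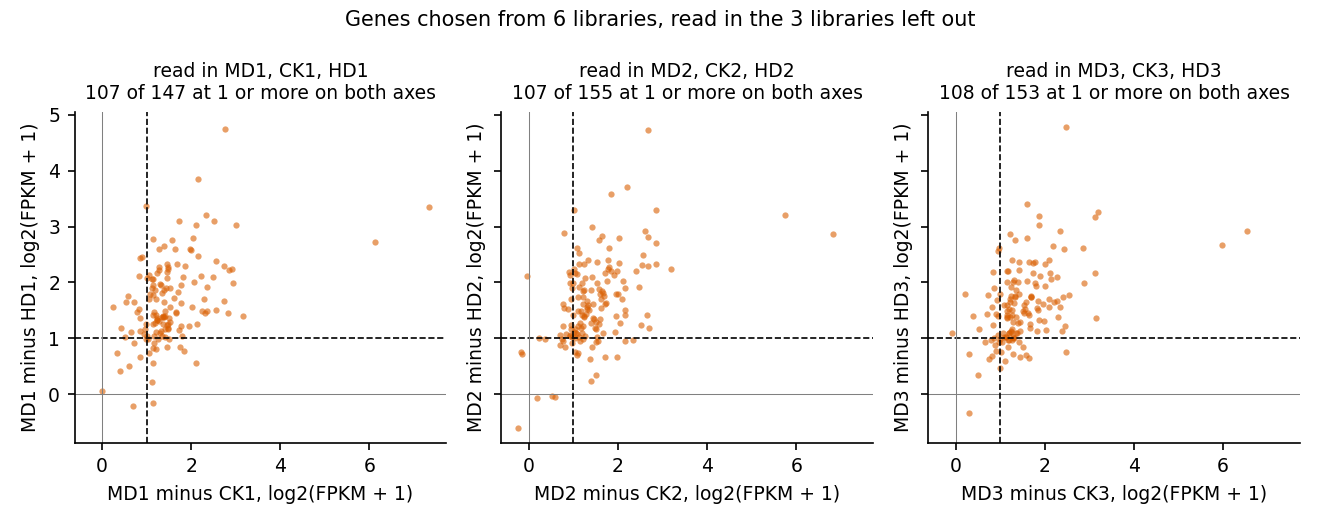
Each point is a gene chosen from 6 libraries, placed by its log2(FPKM + 1) difference of MD minus CK (horizontal) and MD minus HD (vertical) in the 3 libraries not used for the choice. Dashed lines mark a difference of 1, and 107 of 147, 107 of 155 and 108 of 153 points lie at or past both.

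HD against CK, 80 against 20 plants per square metre, asked where the level stood on the far side of the MD maximum. In 46 of the 147 genes HD was lower than CK, in 22 it was higher, and in 79 the difference was not called (limma on log2(FPKM + 1), adjusted p under 0.05 over all tested genes). These are 31.3% lower and 15% higher, or 46.3% called either way. Of all tested genes, 26.6% were called lower, 25.4% higher and 52% either way. Of the 147 genes, 42 passed the filter only because it read MD, and the 28 that reached an FPKM of 1 in MD alone are among them. With the filter set on the 6 CK and HD libraries instead, asking 3 of them to reach an FPKM of 1, 105 of the 147 genes were tested. Of these, 41 (39%) were lower in HD and 19 (18.1%) higher, or 57.1% called, against 27% lower, 25.7% higher and 52.8% called among all 19406 genes tested that way. The share lower thus lay above that of all tested genes under both filters and the share higher below it, while the share called either way lay below it under the first filter and above it under the second. The set was also shallower than the table as a whole, with a median standard error of 0.143, against 0.097 for all tested genes. Among genes with an MD mean of 10 FPKM or more, 26 of 59 (44.1%) were lower and 14 (23.7%) higher. All 10222 tested genes with such an MD mean gave 35.9% and 27.8%. The rule set MD above CK and HD in the 147 genes, so the level in CK and HD is not matched here. No conclusion is drawn from these shares.

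All 3 HD libraries lay below all 3 CK libraries in 45 genes (30.6%) and above them in 24 (16.3%), against 30.1% and 29.6% of all tested genes. The median difference of HD minus CK was -0.11 over the 147 genes and 0.0032 over all tested genes (-0.19 and 0.0032 with the filter set on the CK and HD libraries). The median size of the difference without sign was 0.34 over the 147 genes and 0.27 over all tested genes. Called differences of at least 1 on the log2(FPKM + 1) scale were lower in 14 genes (9.52%) and higher in 7 (4.76%), against 2.7% and 3.05% of all tested genes. The rule asked for large differences of MD from both other densities, and its part in these shares was not tested.

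In the 79 genes not called, the difference of HD minus CK ran from -0.47 to 0.46. On the log2(FPKM + 1) scale the 95% interval of each lay within 1 in either direction, and for 40 of them within 0.5. This does not bound the fold change of low genes, and as a ratio of mean FPKM HD was over 2-fold above CK in 4 of the 79 and under 0.5 times CK in 3. These genes had a median of 58 reads over the CK libraries, against 178.5 in the 68 called genes.

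**Figure D4:**
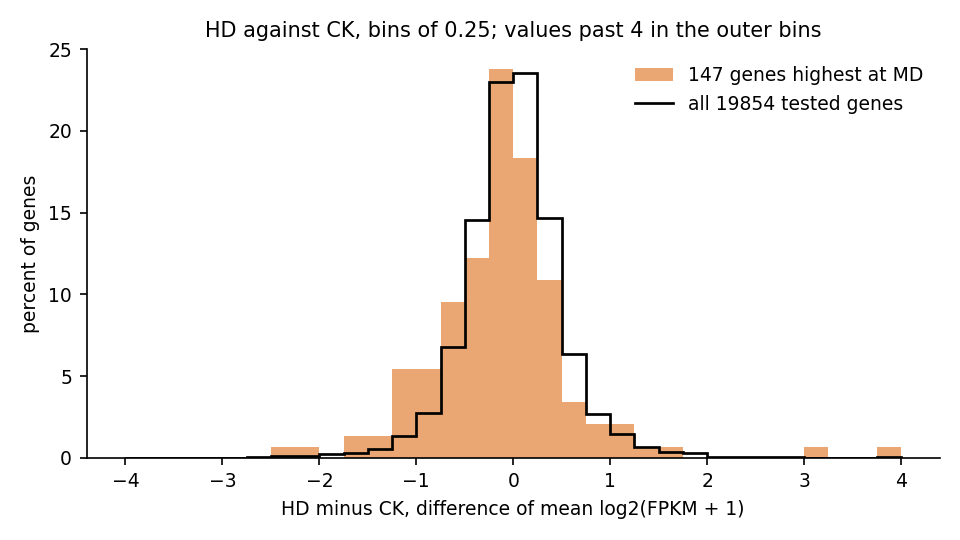
Histogram of HD minus CK, the difference of mean log2(FPKM + 1), in bins of 0.25, as a percent of genes. The filled area holds the 147 genes highest in MD and the line all 19854 tested genes. The filled area is the higher one in each bin from -2.5 to -2, -1.75 to -0.5, -0.25 to 0 and 1 to 1.75. A pair of genes lies past 3 on the upper side.

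On the log2(FPKM + 1) scale, the largest rises in HD relative to CK were those of Gb_36910 and Gb_35701, the genes nearly absent from CK. Gb_36910 averaged 20.7 ± 3.68 FPKM in HD and 0.531 ± 0.450 in CK (SD, n = 3 each), a rise of 3.85 on the log2(FPKM + 1) scale with an SE of 0.187 (limma, adjusted p = 4.05e-08). Gb_35701 averaged 11.9 ± 2.13 FPKM in HD and 0.521 ± 0.260 in CK (SD, n = 3 each), a rise of 3.09 with an SE of 0.140 (limma, adjusted p = 2.47e-08). On the upper side these 2 stood apart from the other genes of the set, as the histogram shows. Both therefore kept a raised level in HD by reads scaled for library size. HD was 38.0-fold (23.9 to 64.6) and 22.3-fold (13.9 to 38.0) above CK (exact 95% intervals, counting error only).

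The largest falls on that scale were in Gb_21895 and Gb_29977. Gb_21895 had 70.1, 69.4 and 70.6 FPKM in the CK libraries, 139, 140 and 148 in the MD libraries and 12.6, 13.4 and 12.8 in the HD libraries. The libraries of each density lay within a narrow range and far from the other densities, and HD minus CK was -2.35 on the log2(FPKM + 1) scale with an SE of 0.0422 (limma, adjusted p = 4.23e-11). By reads, HD was 0.185 times CK (exact 95% interval 0.164 to 0.208). Gb_29977 averaged 0.191 ± 0.10 FPKM in HD and 4.15 ± 0.313 in CK (SD, n = 3 each), and HD minus CK was -2.11 with an SE of 0.101 (limma, adjusted p = 3.68e-08). Its read ratio of HD to CK was 0.0472 (0.0267 to 0.0776), a larger fall than the log2(FPKM + 1) scale gives, which understates changes of low genes. By reads Gb_14012 also fell further than Gb_21895, with a ratio of HD to CK of 0.0831 (0.0484 to 0.134), so the order of the falls depends on the scale.

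Genes of the set tended to lie next to each other in identifier number, a property the rule did not use. Of the 143 tested genes whose number was 1 above or below that of a gene in the set, 20 (14%) were in the set themselves, where 0.74% of all tested genes were. At a distance of 2 the count was 8 of 134 (5.97%), and at 3 it was 4 of 145 (2.76%). At distances of 4, 5, 10 and 100 it was 0 of 132, 123, 134 and 141 tested genes. The sources used here do not say whether identifier numbers follow the order of genes in the genome. In all, 29 genes had another one within 3 numbers, in 13 pairs and 1 trio, and 118 had none.

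**Figure D5:**
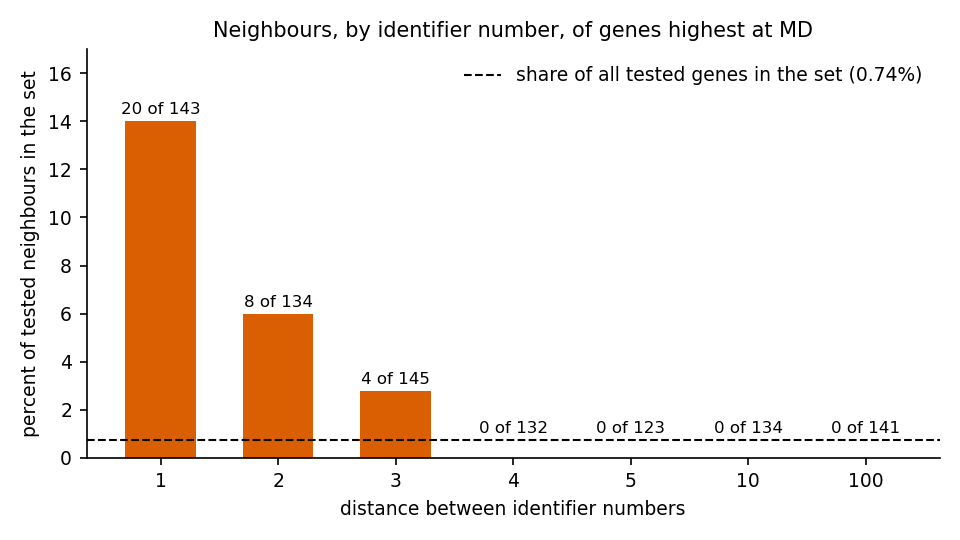
Bars give the percent of tested genes at each distance in identifier number from a gene of the set that were in the set themselves, with the counts above the bars. The dashed line is the 0.74% of all tested genes in the set, and the bars at distances 1, 2 and 3 (14%, 5.97% and 2.76%) lie above it while those from 4 on are at 0.

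Neighbours outside the set leaned slightly the same way. Of the 122 tested genes next in number to a gene of the set but not in it, 23 (18.9%) had all 3 MD libraries above all 6 others, against 9.53% of all tested genes. The median excess of MD in these 122 genes was small, at 0.06 over CK and 0.0618 over HD on the log2(FPKM + 1) scale. At distances of 2, 3, 4 and 5 the share was 13.5%, 11.4%, 11.4% and 9.76%. At a distance of 10 it was 5.22% and at 100 it was 10.6%.

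The 20 directly successive genes formed 10 pairs. In 8 of the 10, HD minus CK had the same sign in both genes, against 54.4% of all successive tested pairs. In the pair with the most different levels, mean FPKM at the CK, MD and HD densities were 6.32, 16.3 and 3.58 for the first gene and 742, 1481 and 412 for the second. Lengths within a pair, as recovered from the FPKM steps, differed by up to 2850 nt. They were equal in 1 pair, with 489 nt each, which was also the only pair called in opposite directions. Its first gene averaged 50.8 FPKM in HD, against 40.0 in CK, and its second 22.4 in HD, against 29.97 in CK. If paired genes are near-identical copies, the authors' counting could have divided reads between them, which was not tested because no sequences were used here.

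The genes were somewhat shorter than the table as a whole. The median recovered length was 975 nt in the set and 1152 nt over all tested genes, with quartiles of 603.5 and 1455 nt against 639 and 1880.75 nt. Under 600 nt lay 24.5% of the set and 22.7% of all tested genes.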

How the data were processed

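Leaf RNA was sequenced in 9 libraries, 3 at each of 3 planting densities. The deposited values are FPKM for each gene in each library, per the file headers. CASAVA 1.8, TopHat2 and RSEM are listed, with no roles, in the submitters' processing notes. The genome build is not given in the sources used here.

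Differences were taken on log2(FPKM + 1). HD minus CK was fitted with limma 3.58.1 (R 4.3.3, intensity trend, all 9 libraries, no replicate block) on the 19854 genes that reached an FPKM of 1 in 3 or more libraries, with Benjamini-Hochberg adjustment over all of them. Whole reads and the lengths that FPKM was scaled by were worked out from the steps between FPKM values. This gave whole reads, within 0.001, for all 21602 genes with no library at 0. Read ratios sum the 3 libraries of a density. Those of HD to CK have exact binomial 95% intervals, for counting error only. The fit and the recovery were tested on simulated data.

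Named genes are those with the 2 largest differences in each pairwise comparison and direction, called where tested. The most abundant genes, the genes at the edges of the rule and the pairs by identifier number were singled out after their values were seen. The members and lists were chosen with earlier results of these data known. Alternatives covered the pseudocount, the filter, the scaling, limma-voom on recovered reads, a replicate block and libraries left out, and after the data were seen a filter on the CK and HD libraries alone, and their effects are given at the end.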

Additional observations from a re-analysis of the deposited data

How the results depend on the processing

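The direction and call of HD minus CK held for the 5 named genes in all 116 recomputed fold changes. Beside the 46 lower and 22 higher genes reported, fits with single libraries left out gave 41 to 46 lower and 18 to 22 higher genes. Their median of HD minus CK was -0.12 to -0.084. These fits called 40.8% to 45.6% of the set, against 46.9% to 51.7% of all tested genes. The replicate block gave 44 and 21, or 44.2% of the set called, against 51.7% of all tested genes. Equal replicate numbers were not treated as pairs, since their deviations correlated between -0.00692 and 0.0734 over all tested genes. Asking for an FPKM of at least 1 in all 9 libraries left 65 of the 147 genes, with 25 lower and 12 higher, so that 56.9% of them were called, against 54.2% of all genes so filtered, where 46.3% and 52% are reported. This filter tests fewer genes by construction. The median of -0.11 became -0.21 with a pseudocount of 0.1 and -0.16 with 0.5, since a smaller pseudocount gives low genes larger differences by construction. It was -0.077 under total-read scaling, which also moved the median of all tested genes, to 0.0805 against 0.0032. It was -0.16 over the 65 genes, -0.19 over the 105 with the filter set on CK and HD, and -0.14 without the libraries numbered 3. These 3, the counts under the filter on CK and HD and those without other numbers were added after seeing the data, and the cause of the last value was not tested. Limma-voom on recovered reads gave 40 lower and 29 higher, or 46.9% of the set called, against 56.9% of all tested genes. Of the called genes of the set 42% were higher there, against 32.4% in the main fit. The median of all tested genes under limma-voom was 0.0927. The size of the set rests on its limits: 234 genes met the rule with a pseudocount of 0.1, 42 with a difference of at least 1.5 and 384 with one of at least 0.6. With single libraries left out 120 to 152 genes met it, and 142 to 147 under other scalings.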

Other observations

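The same rule turned to other shapes gave 90 genes highest in CK and 177 highest in HD, beside the 147 highest in MD, and 138, 71 and 203 genes lowest in CK, MD and HD. Successive identifier numbers were also frequent in most of these sets. Of the tested genes next in number to a gene of the set, the share in the same set was 14.3% for genes lowest in MD, 14.4% for those lowest in HD, 9.59% for those lowest in CK and 6.63% for those highest in HD. For genes highest in CK it was 0 of 75. Over all 10273 successive tested pairs, the excess of MD over the mean of CK and HD correlated across pairs with r = 0.174, against 0.0718 at a distance of 2, 0.025 at 3 and 0.00832 at 100. HD minus CK correlated with r = 0.16 in successive pairs and -0.012 at a distance of 100. The pairs share libraries, and genes are not independent replicates.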
